A study of Mus musculus with 6 samples.

Results

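The 6 leukocyte adhesion molecules Icam1, Icam2, Vcam1, Sele, Selp and Ackr1 were followed through the endothelium of the mouse cerebrum, as 6 of the 32287 genes in the count matrices, each matched by its symbol. They were chosen as a named family, by a rule that uses no measured value, though with earlier results of these data known. The matrices came from 6 male mice aged 12 months, 1 single-cell library per mouse. The 3 WT mice were C57BL/6J. The 3 ArcSwe mice (genotype AppArcSwe in the labels) carry a mutant App transgene, model Alzheimer's disease and were used by the study because they develop amyloid in the walls of cerebral vessels. The promoter driving the transgene is not given in the sources used here. All were untreated, so the groups differ by the transgene alone as far as the labels say. One hemisphere was digested per mouse, vessel fragments were captured with beads against CD31 (Pecam1), which selects for endothelium, and the released cells were sequenced with a 10x 3′ kit that counts each captured molecule once by its molecular identifier (UMI). The question was whether these genes differ between WT and ArcSwe within single endothelial zones, which an average over all endothelium can hide.

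White blood cells leave the blood in steps. Selectins on the endothelium catch them and let them roll, chemokines held on the vessel wall activate them, and integrins on the white cell then grip immunoglobulin-like proteins on the endothelium before the cell crosses. Sele (E-selectin) and Selp (P-selectin, stored in Weibel-Palade bodies and also made by platelets) serve the first step. Ackr1 is an atypical receptor that binds chemokines without signalling through G proteins and is known from venules. Icam1 and Icam2 bind the leukocyte integrin LFA-1, Icam1 being induced by inflammatory cytokines while Icam2 is present on resting endothelium. Vcam1 binds the integrin VLA-4. In most organs this traffic takes place in venules.

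All 6 genes are protein-coding. In the annotation of the GRCm38 (mm10) build, Icam1 (ENSMUSG00000037405) spans chr9:21015985-21028817 on the plus strand, Icam2 (ENSMUSG00000001029) chr11:106377656-106388075 on the minus strand and Vcam1 (ENSMUSG00000027962) chr3:116109949-116129688 on the minus strand. The others share chromosome 1. Sele (ENSMUSG00000026582) spans chr1:164048234-164057677 and Selp (ENSMUSG00000026580) chr1:164115264-164150026, both on the plus strand and 57.6 kb apart, and Ackr1 (ENSMUSG00000037872) spans chr1:173331886-173333750 on the minus strand.

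Promoter windows of RefSeq (GRCm38.p6) were at hand for 4 of the 6 members, Icam1, Sele, Selp and Ackr1. They are shown because inflammatory induction of some genes of this family is known to run through NF-kB. Each was searched on both strands for the NF-kB-like pattern GGNNNTTCC, which on the other strand reads GGAANNNCC. The 250 bases before the start held the pattern in 4 of these 4 windows, and in 15.7% of all 32851 windows of that length (17.6% of the 27025 genes with a window). In Icam1 a match that fits both spellings, and so counts on both strands at the same bases, began 153 bases before the start, and a further match began 84 bases before it. The match lay 145 bases before the start in Sele, 14 bases before it in Selp, and 131 bases before it in Ackr1, where it read GGAAGCCCC. These starts are those of RefSeq. The Ackr1 window (chr1:173333504-173333753) lies almost wholly inside the annotated span of the gene, and so does its match. The Icam1 window ends before the annotated start at 21015985, and the RefSeq start of Icam1 was not found in an annotated transcript. A match of letters is not evidence of binding. The windows of Icam1 (chr9:21015690-21015939), Sele (chr1:164047984-164048233) and Selp (chr1:164115014-164115263) read as follows on the strand of the gene, 5′ to 3′, with the matches in capitals.
Icam1: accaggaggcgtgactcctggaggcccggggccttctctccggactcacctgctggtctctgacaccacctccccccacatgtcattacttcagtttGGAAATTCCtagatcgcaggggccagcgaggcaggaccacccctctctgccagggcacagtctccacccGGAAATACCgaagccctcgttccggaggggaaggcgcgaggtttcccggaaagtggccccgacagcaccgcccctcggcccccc
Sele: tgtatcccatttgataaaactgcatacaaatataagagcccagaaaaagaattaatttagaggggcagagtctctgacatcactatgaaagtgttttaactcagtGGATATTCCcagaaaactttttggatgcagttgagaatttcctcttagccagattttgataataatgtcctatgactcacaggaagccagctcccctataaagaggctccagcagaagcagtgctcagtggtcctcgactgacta
Selp: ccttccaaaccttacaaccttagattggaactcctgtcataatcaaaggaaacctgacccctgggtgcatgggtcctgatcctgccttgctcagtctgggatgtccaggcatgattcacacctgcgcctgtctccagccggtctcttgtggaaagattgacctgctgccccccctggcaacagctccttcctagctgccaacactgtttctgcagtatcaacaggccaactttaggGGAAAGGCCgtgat

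Of 49059 barcodes, 44112 passed the cell filter, 2379 to 13389 per mouse, with medians of 2922 to 5542 UMIs per cell. Pairs of libraries shared 4 to 42 barcodes. WT replicate 3 and ArcSwe replicate 3 were the shallowest per cell and ArcSwe replicate 2 had the fewest cells. The replicate 3 libraries of both groups shared the most barcodes with each other (42), but they also held the most barcodes (9159 in WT and 14928 in ArcSwe). They stood apart in the 5 erythroid markers in capillary cells. These summed to 414 CPM in WT replicate 3, 604 CPM in ArcSwe replicate 3 and 43.1 to 82.8 CPM in the other mice. In fenestrated cells the same markers summed to 2696, 2253 and 380 CPM in WT and to 5339, 13655 and 379 CPM in ArcSwe, lowest in replicate 3. Following the study, endothelial barcodes with any UMI of the microglial genes Cx3cr1 or Aif1 were dropped. These were 5564 of 30261, with 1951 from WT and 3613 from ArcSwe. That left 20227 endothelial cells in zones named from marker genes, with the 6 members kept out of the clustering: 3323 arterial (Bmx, Gkn3, Sema3g), 11820 capillary (Mfsd2a, Car4, Slc16a1), 1041 venous (Nr2f2, Lcn2, Vwf), 614 fenestrated (Plvap, Esm1) and 3429 from 2 clusters with both capillary and venous markers, here called capillary-venous. The venous zone was the thinnest, with 58 to 283 cells per mouse. A further 4470 endothelial cells stayed unnamed, most of them in a cluster led by Apold1, Egr3 and Atf3. The named zones other than fenestrated kept 9164 WT and 10449 ArcSwe cells, so the drop of Cx3cr1 or Aif1 barcodes fell more on ArcSwe. The study had dropped such cells after it saw no difference in their amount between its conditions. What this uneven loss did to the results was not tested. Values are UMIs summed per mouse and zone and given as CPM, the count scaled to a common library total. Because only the 3′ end of each molecule is counted, CPM was not divided by transcript length. App itself did not separate the groups in any zone (capillary means 1506 ± 93.0 CPM in WT and 1492 ± 102 in ArcSwe, SD, n = 3 each), and since its count rests on the 3′ end of the mouse gene it does not test the transgene.

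The members fell into 3 patterns across the zones. Icam1 and Vcam1 were highest in venous endothelium, where they exceeded capillary endothelium in 6 of 6 mice, Icam1 by a median of 11.3 times and Vcam1 by a median of 79.0 times. Icam2 was nearly level in all zones. Sele, Selp and Ackr1 were near 0 in arterial and capillary cells and highest in venous endothelium. Sele was next highest, at like levels, in fenestrated and capillary-venous cells, which overlapped. Zones come from clusters of the same cells, so these differences between zones are a description with no test.

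**Figure D1:**
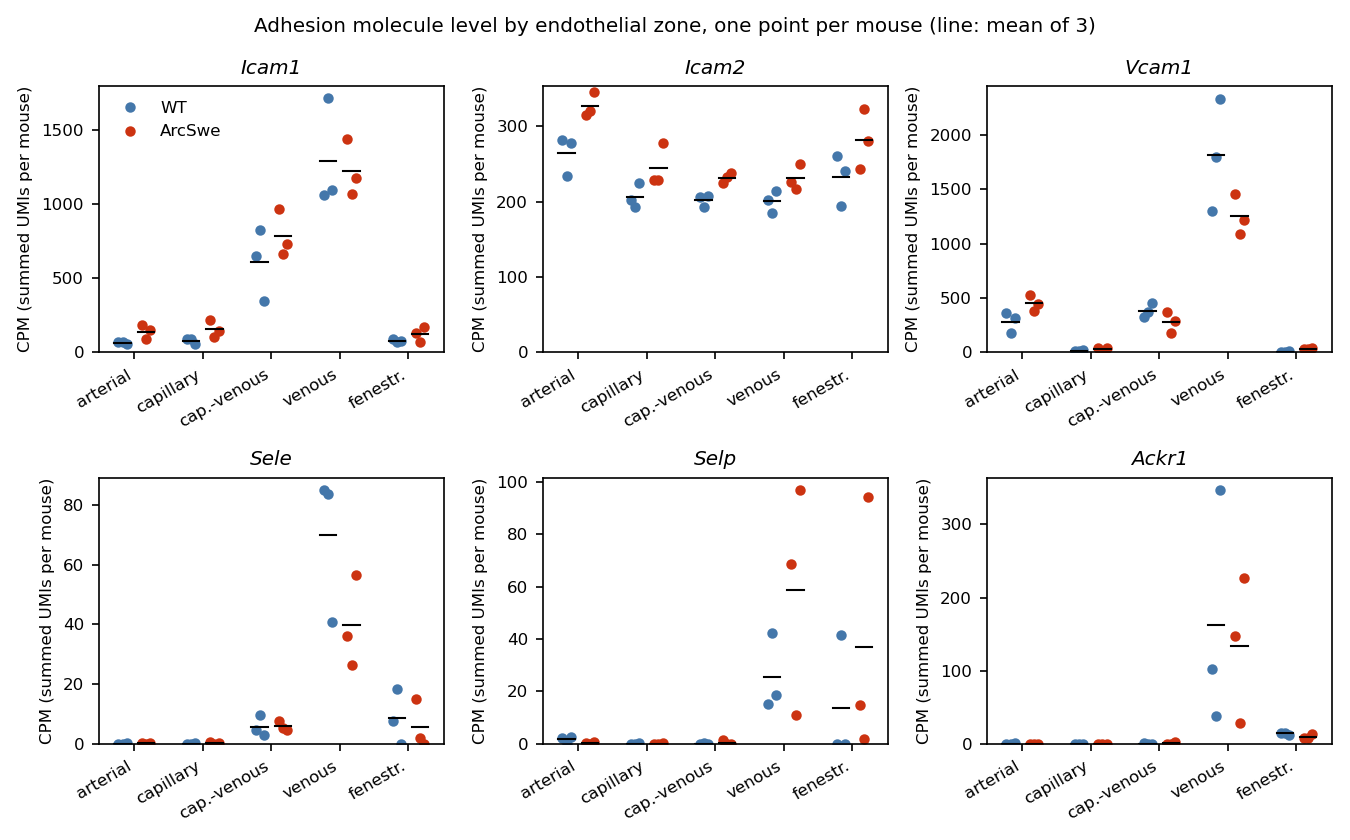
CPM of each adhesion molecule (vertical axis, linear, a scale per gene) in 5 endothelial zones (horizontal axis), with 1 point per mouse, WT in blue and ArcSwe in red, and a line at the mean of 3 mice. Icam1 and Vcam1 peak in the venous zone at above 1000 CPM in every mouse, Icam2 stays between 185 and 345 CPM throughout, and Sele, Selp and Ackr1 are near 0 in arterial and capillary cells.

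Icam1 in venous cells stood at 1059, 1711 and 1094 CPM in WT replicates 1 to 3 and at 1435, 1064 and 1174 CPM in ArcSwe replicates 1 to 3. In capillary-venous cells it was 649.7, 822 and 349 CPM in WT and 965, 664 and 731 CPM in ArcSwe. Venous cells were above capillary-venous cells in 6 of 6 mice, and their ranges did not meet, whereas capillary, arterial and fenestrated cells overlapped at the low end. The capillary-venous value hid 2 unlike clusters. The cluster led by Icam1 itself, Cyp2e1 and Sdk1 held Icam1 at 451 to 1244 CPM, and the one led by Flrt2, Sdk1 and Cyp2e1, with Car4 among its leading genes, at 70.4 to 142 CPM. Capillary clusters differed too. The capillary cluster led by the early-response genes Dusp6, Jun and Fosb held Icam1 at 92.8 to 424 CPM (median 183), against 25.4 to 93.9 CPM in the cluster led by Car4 and 20.5 to 68.6 CPM in a cluster with Cxcl12 and Alpl among its leading genes.

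Vcam1 in venous cells stood at 1299, 1799 and 2329.9 CPM in WT and at 1458, 1088 and 1219 CPM in ArcSwe. It had a second, lower peak at the arterial end, at 179 to 525 CPM. That peak was steepest in the cluster of large arteries, led by Fbln5, Mgp and Eln, where Vcam1 was 864 to 1286 CPM, while the cluster led by Vegfc and Gkn3 held 59.7 to 241 CPM and the cluster led by S100a6 and Pi16 70.3 to 238 CPM. Capillary Vcam1 was the lowest of the barrier zones at 11.9 to 39.7 CPM.

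Icam2 ranged only from 185 to 345 CPM over the 5 zones and 6 mice. It was highest in arterial cells, above capillary cells in 6 of 6 mice by 1.22 to 1.40 times, and neighbouring zones in its order overlapped throughout. In pericytes (45.3 to 103 CPM) and smooth muscle (3.90 to 23.3 CPM) it was well below its endothelial level.

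The selectins were low even where they were highest, and venous Ackr1 varied widely between mice. Venous Sele was 26.3 to 84.9 CPM, venous Selp 10.97 to 96.7 CPM and venous Ackr1 28.5 to 347 CPM. The spread of Ackr1 lay between mice and not between genotypes, since its 2 lowest values came from WT replicate 2 and ArcSwe replicate 2 and its highest from WT replicate 3. Fenestrated endothelium, which lines vessels without a blood-brain barrier, held Ackr1 at 8.03 to 15.4 CPM in all 6 mice and Selp at 0 to 94.2 CPM, with most Selp UMIs from ArcSwe replicate 3 and WT replicate 2. In arterial cells all 6 mice together gave 3 UMIs of Sele, 23 of Selp and 7 of Ackr1, and in capillary cells 8, 5 and 9.

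Icam1 and Vcam1 were also found in other cells of the preparation, as was Icam2 in pericytes at the lower level given above. Microglia held Icam1 at 255 to 462 CPM, above capillary endothelium in each mouse, with WT at 306, 357 and 255 CPM and ArcSwe at 405, 462 and 437 CPM. Pericytes held Icam1 at 37.7 to 187 CPM and Vcam1 at 37.1 to 236 CPM, and ependymal and choroid epithelial cells held Vcam1 at 86.5 to 477 CPM on 83 UMIs in all. Smooth muscle was the low reference, with Icam1 at 11.7 to 35.0 CPM and Vcam1 at 2.60 to 19.6 CPM. Sele gave 0 UMIs in pericytes and 1 in smooth muscle.

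**Figure D2:**
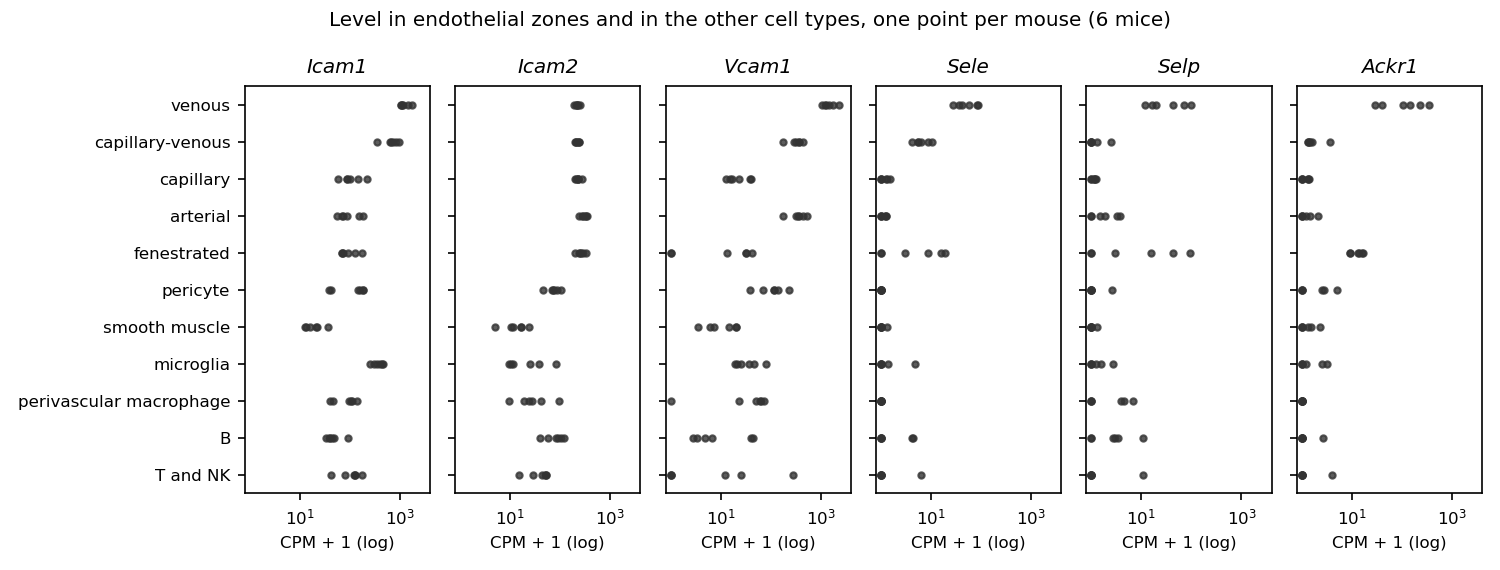
CPM + 1 of each member (horizontal axis, log scale) in endothelial zones and in other cell types (vertical axis), 1 point per mouse for 6 mice. The points of Sele, Selp and Ackr1 leave the left edge mainly in venous and fenestrated endothelium, whereas Icam1 also lies at 255 to 462 CPM in microglia and Vcam1 at 37.1 to 236 CPM in pericytes.

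Shares of cells gave the same order. For all shares at a set depth, cells were thinned to that number of UMIs and shallower cells were left out. At 1000 UMIs, Icam1 was detected in 38.8% to 61.8% of venous cells, Vcam1 in 48.0% to 66.7%, Ackr1 in 1.96% to 16.2%, Sele in 0% to 3.92% and Selp in 0% to 4.85%. Smooth muscle, used as the background because free RNA reaches every droplet, gave 0.58% to 2.57% for Icam1, 0% to 1.43% for Vcam1, 0% for both selectins and 0% to 0.095% for Ackr1. Median depths before thinning were 3963 to 7615 UMIs in venous cells and 4601 to 7897.5 UMIs in smooth muscle. Without thinning, Icam1 was detected in 65.7% to 89.2% of venous cells and Vcam1 in 75.9% to 85.3%.

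Within the venous zone the members met in the same cells only in part. At 1000 UMIs per cell, Vcam1 was detected in a median of 60.7% of the cells with Icam1 and 43.3% of those without it, and it was higher with Icam1 in 6 of 6 mice. Icam2 showed no such order (17.0% with Icam1 and 19.0% without, higher in 3 of 6 mice). Of the venous cells with at least 1000 UMIs, 219 showed none of the members at this depth, 352 showed 1, 326 showed 2, 102 showed 3, 24 showed 4, 1 showed 5 and 0 showed all 6.

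Cells were also placed along the arteriovenous axis by arterial and venous marker genes alone and cut into 10 equal bins per mouse. Icam1 was lowest in bin 2, at a median of 46.1 CPM, and higher in each later bin, to 978 CPM in bin 10 at the venous end. Vcam1 was U-shaped, with medians of 518 CPM in bin 1, 15.5 CPM in bin 3 and 1012 CPM in bin 10. Icam2 declined from a median of 304 CPM in bin 1 to 199.7 CPM in bin 6 and lay at 228 CPM in bin 10. Ackr1 had a median of 1.93 CPM in bin 9 and 64.2 CPM in bin 10, Sele 4.81 and 26.5 CPM, and Selp 0.23 and 14.5 CPM. The last bin was the highest of the 10 for all 3 by median.

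**Figure D3:**
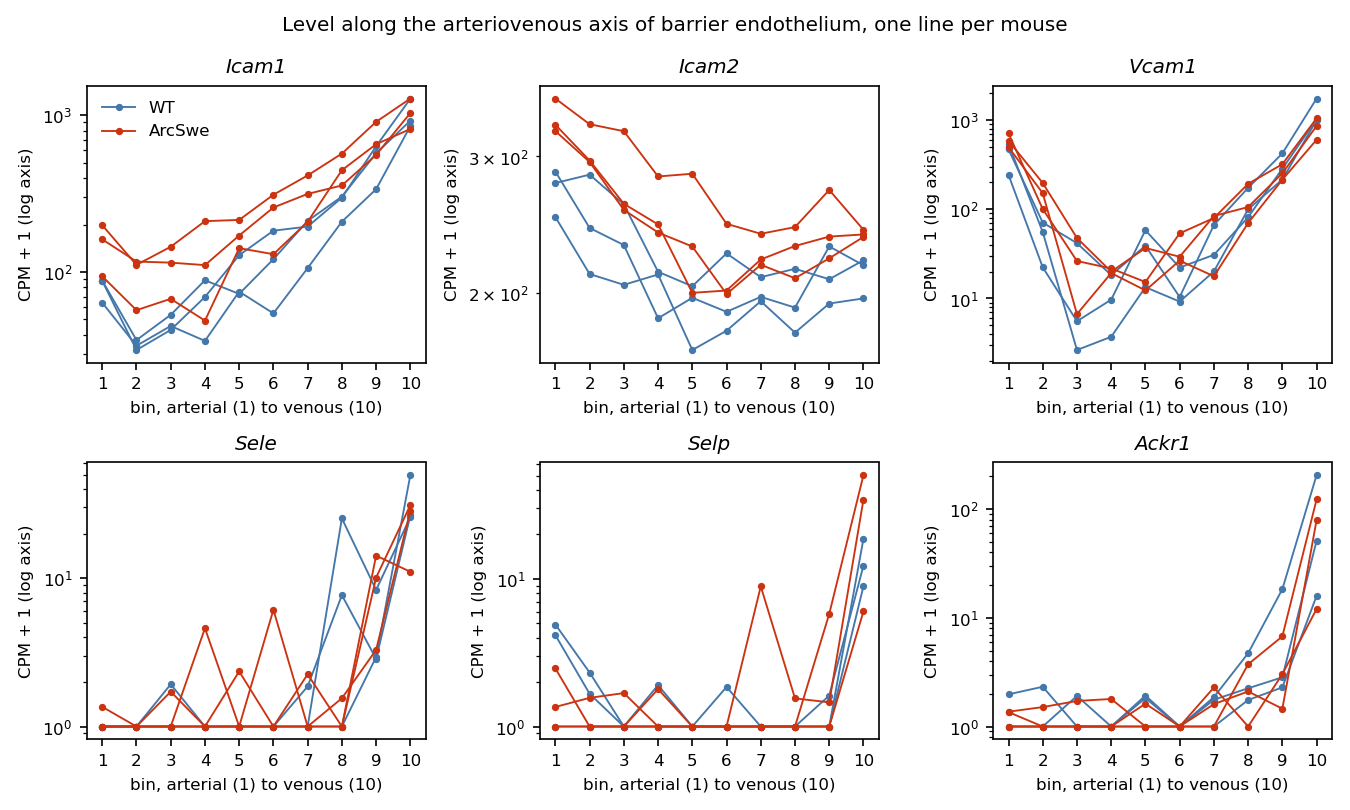
CPM + 1 of each member (vertical axis, log scale) in 10 bins of barrier endothelial cells ordered from arterial (1) to venous (10), 1 line per mouse, WT in blue and ArcSwe in red. Icam1 climbs towards the venous end, Vcam1 has a trough between both ends, Icam2 changes little, and Sele, Selp and Ackr1 appear at the venous end.

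Other genes followed the members closely over the 24 sums of 4 zones and 6 mice, by Pearson's r of log2(CPM + 1) among 9847 genes. These sums share zones and mice, so r is a description. Closest to Icam1 were Adgrg6, Gm6209 and Col6a6 (r = 0.95 each), with Adgrg6 at a mean of 199 CPM in venous and 0.75 CPM in capillary cells. Closest to Vcam1 were Spint2 (r = 0.94), Eef2k (r = 0.93) and Tspan7 (r = 0.93). Ackr1 was followed by Lrg1 (r = 0.97), a secreted glycoprotein of venules, Tll1 (r = 0.96) and Lbp (r = 0.95), the binding protein of bacterial lipopolysaccharide. Icam2 was followed by Phf11b (r = 0.87), F11r (r = 0.86), the junctional adhesion molecule JAM-A, and the interferon-inducible GTPase Igtp (r = 0.84). Sele was followed by the ribosomal protein genes Rps15a (r = 0.93) and Rpl28 (r = 0.92) and by the interleukin-1 receptor Il1r1 (r = 0.90), and Selp by the Notch ligand Dll1 (r = 0.89), Pnrc2 (r = 0.84) and Rpl7a (r = 0.83).

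In arterial endothelium Icam1, Icam2 and Vcam1 each lay higher in all 3 ArcSwe mice than in all 3 WT mice, by about 2.23, 1.27 and 1.64 times, but none passed the test over all genes. Icam1 was 72.1, 70.0 and 55.2 CPM in WT and 181, 87.6 and 151 CPM in ArcSwe (means 65.7 ± 9.22 and 139.9 ± 47.8, SD, n = 3 each). ArcSwe replicate 2 was close to WT and the other ArcSwe mice stood apart. The log2 fold change was 1.16 ± 0.23 (SE), with a 95% confidence interval of 0.65 to 1.66 and an edgeR adjusted p of 0.573, the sixth lowest p of 10705 genes. Vcam1 was 357, 179 and 314 CPM in WT and 525, 376 and 447 CPM in ArcSwe, and Icam2 282, 234 and 278 CPM in WT and 315, 321 and 345 CPM in ArcSwe. Their log2 fold changes were 0.71 ± 0.22 and 0.35 ± 0.11, with an edgeR adjusted p of 0.9996 for both. For Icam1, DESeq2 in place of edgeR gave 1.14 with an adjusted p of 0.0012, and DESeq2 called 12 genes in this zone. Over 10 alternatives the log2 fold change of Icam1 was 1.12 to 1.17 and passed in 2 (DESeq2, and edgeR with no count filter, adjusted p = 7.0e-13), with an adjusted p of up to 0.666 in the others, and leaving out each mouse gave 0.92 to 1.38, with an edgeR adjusted p of 0.0523 or above. Of all genes tested here, 3.36% were higher without overlap in ArcSwe, and 0.00934%, the 1 gene Ptchd1, passed the edgeR test, lower in ArcSwe (named after its value was seen). Unadjusted, 3.86% of genes had a p under 0.05, the 3 members among them. Sele, Selp and Ackr1 fell under the count filter. In an exact two-sided permutation test of CPM, where 3 mice against 3 cannot go below p = 0.1, Icam1, Icam2 and Vcam1 each reached p = 0.1. The summed level of 8 microglial markers in the arterial cells was 143 to 397 CPM in WT and 238 to 530 CPM in ArcSwe, with 2 of the 8 at 0 because cells carrying them had been left out. The summed level of 9 early-response genes was 11490 to 22116 CPM in WT and 19113 to 26890 CPM in ArcSwe. That of 13 arterial markers was 6416 to 9156 CPM in WT, lowest in replicate 2, and 8934 to 9866 CPM in ArcSwe. WT replicate 2 had 32 cells of the Vcam1-rich large-artery cluster among 401 arterial cells. Mean Vcam1 in the S100a6 and Pi16 cluster was 163 CPM in WT and 138 CPM in ArcSwe, while the other arterial clusters were higher in ArcSwe. Their part in the result was not tested.

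In capillary endothelium Icam1 and Icam2 were again higher without overlap and Vcam1 was higher in 2 of 3 ArcSwe mice than in any WT mouse, and none of them passed the test. Icam1 was 87.3, 87.1 and 58.2 CPM in WT and 218, 102 and 147 CPM in ArcSwe (means 77.6 ± 16.7 and 156 ± 58.1, SD, n = 3 each). The log2 fold change was 1.05 ± 0.27, with a 95% confidence interval of 0.44 to 1.66 and an edgeR adjusted p of 0.926. Icam2 was 202, 193 and 225 CPM in WT and 229, 229 and 278 CPM in ArcSwe (log2 fold change 0.29 ± 0.11, edgeR adjusted p = 0.981). Vcam1 was 14.7, 11.9 and 22.5 CPM in WT and 39.7, 15.6 and 37.0 CPM in ArcSwe (1.00 ± 0.33, edgeR adjusted p = 0.981), so the low ArcSwe mouse was again replicate 2. With the capillary-venous cells counted as capillary, the Vcam1 log2 fold change was -0.15 and that of Icam1 0.63. Of 11796 genes, 4.27% were higher in ArcSwe without overlap and 0% passed the edgeR test, while 533 (4.52%) had an unadjusted p under 0.05, the 3 members among them, and DESeq2 called 13. Beside these values, the summed level of 7 venous markers in capillary cells was 427 to 549 CPM in WT and 546 to 617 CPM in ArcSwe, that of the microglial markers 168 to 642 and 235 to 908 CPM, and that of the early-response genes 6611 to 17904 and 13757 to 18289 CPM, the lowest being WT replicate 3. Their part in the result was not tested.

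In capillary-venous endothelium, only Icam2 was separated between the groups, at 205, 192 and 208 CPM in WT and 225, 232 and 238 CPM in ArcSwe (log2 fold change 0.23 ± 0.10, edgeR adjusted p = 0.9996). Of 10553 genes, 3.55% were higher in ArcSwe without overlap and none was called (0%), while 490 (4.64%) had an unadjusted p under 0.05 and DESeq2 called 4. Vcam1 was 325, 368 and 452 CPM in WT and 375, 177 and 291 CPM in ArcSwe (-0.40 ± 0.23, edgeR adjusted p = 0.9996).

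In venous endothelium, where these genes were highest, the picture differed. Icam1 overlapped between the groups, with means of 1288 ± 367 CPM in WT and 1225 ± 191 CPM in ArcSwe, and its log2 fold change was -0.07 ± 0.24 (95% confidence interval -0.57 to 0.44, edgeR adjusted p = 1.00). Vcam1 had means of 1809 ± 516 and 1255 ± 188 CPM, and its log2 fold change was -0.51 ± 0.23 (95% confidence interval -0.99 to -0.02, edgeR adjusted p = 1.00). Icam2 was 201, 185 and 215 CPM in WT and 226, 217 and 250.02 CPM in ArcSwe. It was the only member without overlap here, where 4.58% of 8824 genes were higher in ArcSwe without overlap, and its log2 fold change was 0.23 ± 0.15 (edgeR adjusted p = 1.00). None of the 8824 genes passed in edgeR (0%) or DESeq2. Unadjusted, edgeR gave 332 genes a p under 0.05 (3.76%), among them Vcam1 and Sele, lower in ArcSwe, and Selp, higher in ArcSwe, and DESeq2 gave 105.

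The venous selectins rested on few molecules. Sele was 84.9, 83.6 and 40.9 CPM in WT and 36.1, 26.3 and 56.5 CPM in ArcSwe, from 12 to 83 UMIs per mouse. Selp was 15.3, 42.5 and 18.5 CPM in WT and 68.7, 10.97 and 96.7 CPM in ArcSwe, from 5 to 142 UMIs per mouse. Ackr1 was 102, 38.4 and 347 CPM in WT and 148, 28.5 and 226 CPM in ArcSwe. All 3 overlapped between the groups. The log2 fold changes were -0.68 ± 0.31 for Sele, 1.47 ± 0.48 for Selp and -0.18 ± 0.58 for Ackr1, with an edgeR adjusted p of 1.00 each. Ackr1 was decided by single mice, since its log2 fold change became 1.03 without WT replicate 3 and 0.19 without ArcSwe replicate 2. Platelets also carry Selp. The 7 platelet markers summed to 4.4 to 15.3 CPM in venous cells, and leaving out cells with any of them gave a log2 fold change of 1.49 for Selp.

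In fenestrated endothelium the groups were separated only in Vcam1 among the members tested, and on few molecules. Vcam1 was 0, 0 and 12.3 CPM in WT and 31.0, 30.6 and 40.7 CPM in ArcSwe, from 0, 0 and 6 UMIs and from 27, 15 and 19 UMIs. All 3 ArcSwe mice lay above all 3 WT mice, as did 4.02% of 6709 genes. It passed the count filter only through the ArcSwe mice, so its fitted fold change is not given, and it did not pass the test (edgeR adjusted p = 0.670). The molecules came from few cells, at 1.97% to 3.51% of ArcSwe cells and 0% to 0.88% of WT cells when thinned to 1000 UMIs, against 0% to 1.43% of smooth muscle cells. Arterial markers in the fenestrated cells summed to 716 to 1013 CPM in WT and 614 to 1130 CPM in ArcSwe and venous markers to 48.6 to 139 and 36.7 to 186 CPM, with overlap in both. Icam1 was 92.1, 69.2 and 73.5 CPM in WT and 129, 69.4 and 171 CPM in ArcSwe (log2 fold change 0.70 ± 0.27) and Icam2 261, 194 and 241 CPM in WT and 243, 323 and 280.4 CPM in ArcSwe (0.32 ± 0.18), both with overlap and an edgeR adjusted p of 0.999. No gene passed in edgeR (0%) or DESeq2. Unadjusted, 291 genes (4.34%) had a p under 0.05 in edgeR and 100 in DESeq2.

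With arterial, capillary, capillary-venous and venous cells summed as barrier endothelium, all 6 members passed the count filter. Icam2 had a log2 fold change of 0.28 ± 0.09, without overlap, as 3.65% of 13106 genes were. Icam1 had 0.48 ± 0.24 and Vcam1 -0.04 ± 0.26, and the edgeR adjusted p was 0.999 or above for all 6. edgeR called no gene (0%), with 530 (4.04%) under an unadjusted p of 0.05, while DESeq2 called 8.

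**Figure D4:**
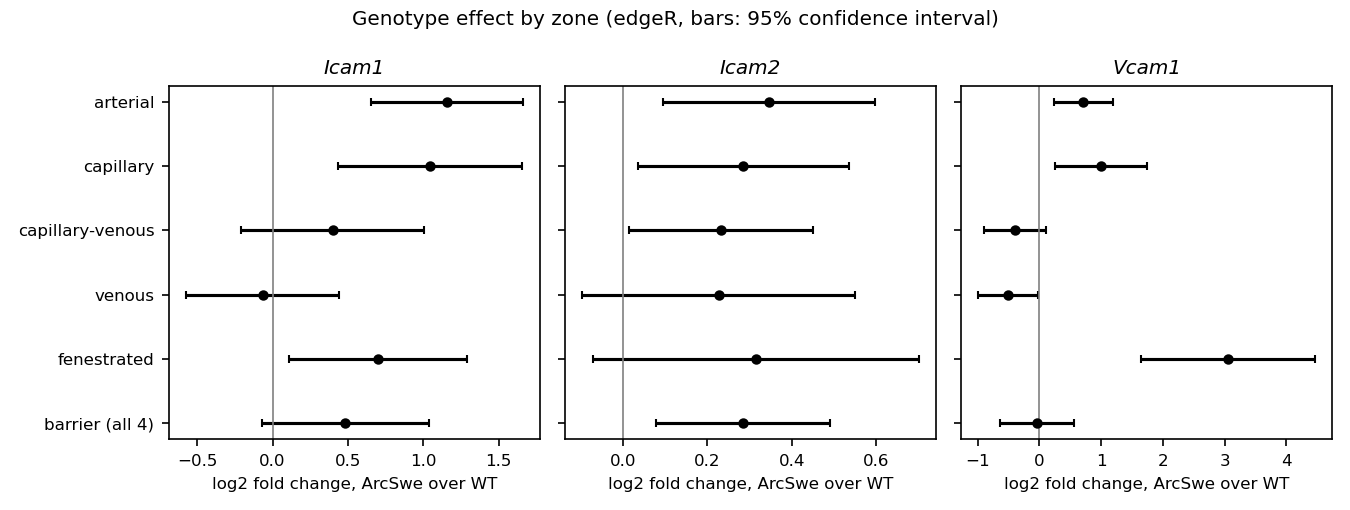
Log2 fold change of ArcSwe over WT (horizontal axis, a scale per gene) for Icam1, Icam2 and Vcam1 in 5 endothelial zones and their barrier sum (vertical axis), with 95% confidence intervals from edgeR over 3 mice per group. Icam1 lies at 1.16 in arterial and 1.05 in capillary cells and at -0.07 in venous cells, and Icam2 lies between 0.23 and 0.35 in all. The fenestrated Vcam1 point rests on 6 WT UMIs and is no measure of size.

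The zones were then compared with each other, in 1 model with the mouse as a block, to ask whether the difference between ArcSwe and WT depended on the zone. Between venous and capillary endothelium it did for Icam1 and Vcam1. The log2 fold change of Icam1 was lower in venous than in capillary cells by 1.04 ± 0.19 (venous minus capillary -1.04, 95% confidence interval -1.43 to -0.65, edgeR adjusted p = 0.0138), and that of Vcam1 by 1.48 ± 0.28 (-1.48, -2.07 to -0.90, edgeR adjusted p = 0.0224). Within each mouse, venous Icam1 was 12.1, 19.6 and 18.8 times capillary Icam1 in WT and 6.60, 10.4 and 7.99 times in ArcSwe. For Vcam1 the ratio was 88.1, 152 and 104 in WT and 36.8, 69.9 and 32.9 in ArcSwe. All 3 ArcSwe mice lay below all 3 WT mice in both ratios. These ratios reread the sums of the test, and the share of all genes separated in this way was not computed. The capillary-venous to capillary ratio of Vcam1 was separated too, at 22.1, 31.0 and 20.1 in WT and 9.45, 11.4 and 7.87 in ArcSwe. That of Icam1 overlapped. The 7 venous markers summed to 3535 to 4474 CPM in WT and 3541 to 4515 CPM in ArcSwe in venous cells, and to 427 to 549 and 546 to 617 CPM in capillary cells. The early-response genes summed to 8055 to 31313 and 20143 to 27403 CPM in venous cells. The 8 microglial markers summed to 148 to 426 CPM in WT and 195 to 501 CPM in ArcSwe in venous cells, and to 168 to 642 and 235 to 908 CPM in capillary cells. Their part in the result was not tested. Icam2, by contrast, gave -0.03 (95% confidence interval -0.29 to 0.24, edgeR adjusted p = 1.00). Sele, Selp and Ackr1 had too few capillary UMIs for a narrow interval, with standard errors of 1.28, 2.73 and 1.14.

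Icam1 and Vcam1 were 2 of 7 genes called in this contrast among 10755, that is 0.0651% of them (5.05% had an unadjusted p under 0.05). The other 5, named after their values were seen, were Csf1, the growth factor of microglia and macrophages (-1.21 ± 0.18), the neutrophil chemokine Cxcl2 (-2.31 ± 0.39), the lipopolysaccharide co-receptor Cd14 (-1.94 ± 0.33), the class I gene H2-Q6 (-1.27 ± 0.25) and Il1r1, the receptor of interleukin-1 (-0.85 ± 0.15). All 7 were lower in the venous than in the capillary contrast. Cd14 was also a leading gene of a microglial cluster of this preparation, and whether its UMIs here came from endothelium was not tested. Between arterial and capillary cells the difference was 0.11 ± 0.21 for Icam1, -0.27 ± 0.28 for Vcam1 and 0.08 ± 0.11 for Icam2, and edgeR called no gene of 10755 (0%), with 324 (3.01%) under an unadjusted p of 0.05. Between fenestrated and capillary cells, Icam1 gave -0.34 ± 0.29 and Icam2 0.05 ± 0.14, and 0.0093% of genes were called (6.2% unadjusted).

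The calls for Icam1 and Vcam1 depended on single mice. Leaving out one mouse at a time gave -1.26 to -0.88 for Icam1 and -1.70 to -1.24 for Vcam1. The call for Icam1 was lost without WT replicate 2 (edgeR adjusted p = 0.210), WT replicate 3 (0.117) or ArcSwe replicate 1 (0.345), and that for Vcam1 without WT replicate 2 (0.176), WT replicate 3 (0.0710), ArcSwe replicate 1 (0.345) or ArcSwe replicate 3 (0.296). Finer clusters (resolution 2) gave -0.93 (edgeR adjusted p = 0.0791) and -1.06 (0.479). With endothelial cells carrying Cx3cr1 or Aif1 kept, both calls remained, at -0.94 and -1.52 (edgeR adjusted p = 0.0353 each).

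**Figure D5:**
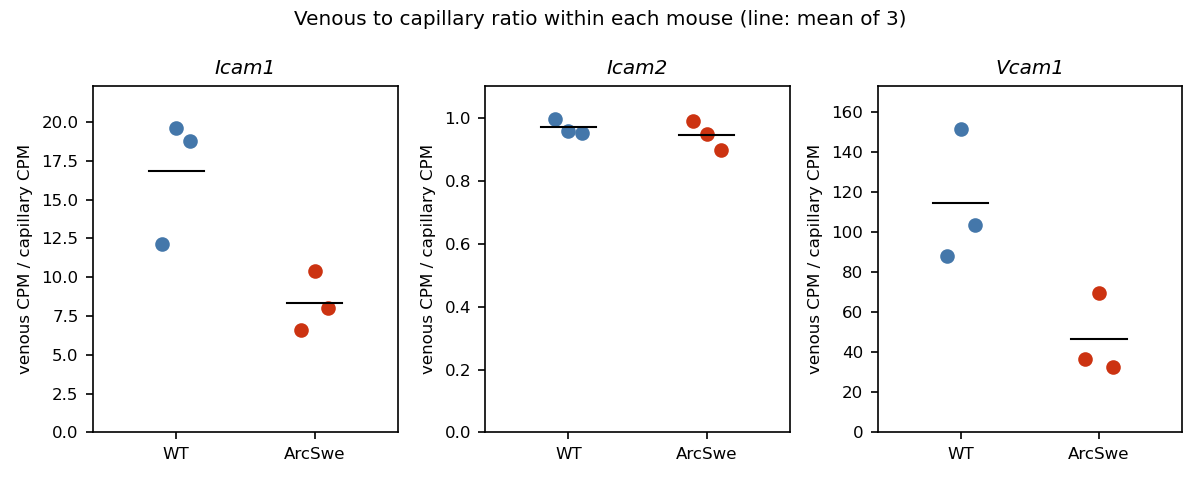
Venous CPM divided by capillary CPM within each mouse (vertical axis, linear from 0) for Icam1, Icam2 and Vcam1, 1 point per mouse, WT in blue and ArcSwe in red, line at the mean of 3. The ArcSwe ratios of Icam1 (6.60 to 10.4) and Vcam1 (32.9 to 69.9) lie below all WT ratios, and those of Icam2 lie near 1 in both groups.

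The wider adhesion cascade was read from 8 gene lists (junction and transmigration genes, makers of selectin ligands, chemokines and their scavengers, cytokine receptors, NF-kB targets, cytoskeletal anchors, Weibel-Palade body genes and leukocyte counter-receptors). None of their genes passed the edgeR test within any zone, against 0.00934% of all genes in arterial cells and 0% elsewhere. Cxcl2 and Il1r1, both on these lists, were among the genes called between venous and capillary cells (edgeR adjusted p = 0.00936 and 0.0138). At an unadjusted p under 0.05, which 3.86% of all genes met in arterial, 4.52% in capillary, 3.76% in venous and 4.34% in fenestrated cells, the arterial genes were 3 NF-kB targets, 2 chemokines, 1 cytokine receptor and 1 junction gene, and the capillary genes 3 cytokine receptors, 2 chemokines and 2 NF-kB targets, all higher in ArcSwe. The venous genes were 1 chemokine and 1 cytokine receptor higher and 1 chemokine lower, and the fenestrated genes 1 cytoskeletal anchor and 1 Weibel-Palade body gene, both lower. In capillary cells the median log2 fold change was 0.86 for 8 tested chemokines and scavengers and 0.19 for 12 NF-kB targets, 0.12 for 12 cytokine receptors and adaptors, 0.06 for 15 junction and transmigration genes, 0.34 for 8 leukocyte counter-receptors, which white blood cells carry, 0.24 for 7 Weibel-Palade body genes, 0.06 for 6 makers of selectin ligands and -0.04 for 8 cytoskeletal anchors, against 0.00 for all genes. In venous cells the medians were -0.17 for 6 tested chemokines and scavengers, -0.03 for 13 NF-kB targets, -0.02 for 12 cytokine receptors and adaptors, 0.01 for 13 junction and transmigration genes, -0.14 for 2 counter-receptors, 0.02 for 4 Weibel-Palade body genes, 0.01 for 4 makers of selectin ligands and 0.03 for 8 anchors, against -0.01 for all genes. The lowest p of the lists in arterial cells belonged to Cxcl10, the interferon-induced chemokine of T cells (1.70 ± 0.89 CPM in WT and 12.0 ± 6.71 in ArcSwe, edgeR adjusted p = 0.343). At this low WT level it passed the count filter only through the ArcSwe mice, so its arterial fold change is not given. Cxcl10 was also a leading gene of a microglial cluster of this preparation, and the source of its UMIs here was not tested. Next in arterial cells came the NF-kB inhibitor Tnfaip3 (log2 fold change 1.00 ± 0.27) and Birc3 (0.77 ± 0.22). In capillary cells the list genes of lowest p were Tnfaip3 (1.23 ± 0.31), Cxcl10 (2.76 ± 0.77) and Cxcl2 (1.87 ± 0.55). In venous cells they were the membrane-bound chemokine Cx3cl1 (-0.73 ± 0.27), Cxcl10 (1.02 ± 0.41) and the TNF receptor Tnfrsf1a (0.39 ± 0.17). In fenestrated cells they were the actin cross-linker Flna (-0.74 ± 0.24), Stxbp5 (-0.46 ± 0.21) and F11r (0.32 ± 0.17). In capillary-venous cells they were the adhesion molecule Alcam (0.50 ± 0.15), Cxcl10 (0.81 ± 0.26) and Birc3 (0.49 ± 0.19), and in the barrier sum Cxcl10 (1.32 ± 0.40), the scavenger Ackr3 (0.29 ± 0.11) and Actn1 (0.23 ± 0.09).

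Shares of cells with a UMI, thinned to 1000 UMIs, separated the groups for Icam1 and Vcam1 in arterial and for Icam1 in capillary cells, but not for Icam2. Icam2 overlapped in arterial (20.7% to 28.0% in WT and 25.8% to 31.8% in ArcSwe), capillary, capillary-venous and venous cells, with p = 0.2, 0.2, 0.3 and 1.0 in an exact two-sided permutation test. Arterial Icam1 was detected in 6.04%, 4.24% and 4.43% of WT cells and in 11.6%, 6.58% and 10.6% of ArcSwe cells, and capillary Icam1 in 5.61%, 6.14% and 4.77% of WT cells and 11.3%, 8.01% and 9.25% of ArcSwe cells. Arterial Vcam1 was detected in 19.7%, 12.0% and 19.1% of WT cells and 24.1%, 24.1% and 23.6% of ArcSwe cells. In these 3 the groups did not overlap, and the exact two-sided permutation test gave p = 0.1, the smallest it allows. The fenestrated Vcam1 shares given above did not overlap either, on few molecules. Shares were computed for the members only, so the part of all genes separated in this way is not known. Smooth muscle cells gave 1.64%, 1.02% and 0.58% for Icam1 in WT and 1.43%, 2.11% and 2.57% in ArcSwe, at median depths of 4601 to 7897.5 UMIs, against 4052 to 6796 in arterial and 2386 to 4606.5 in capillary cells. In venous cells the difference in mean share, ArcSwe minus WT, was -10.3 percentage points for Icam1 and -9.76 for Vcam1, with overlap and p = 0.3 in the same exact permutation test.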

How the data were processed

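Libraries from 3 WT and 3 ArcSwe mice were compared. The authors aligned the reads with Cell Ranger 7.0.0 to mm10 and deposited raw UMI counts per gene and cell. Barcodes with 500 to 4500 genes and under 10% mitochondrial counts were kept (the study's limits), and no doublet caller was run. Cells were clustered with scanpy 1.11.5 and leidenalg 0.10.2 (2000 variable genes standardized within each mouse, 30 components, 20 neighbours, resolution 1), without the 6 members. Zones were named from fixed markers, with score thresholds set after the cluster profiles were seen. UMIs were summed per mouse and zone. The 6 members and the gene lists were chosen with earlier results of these data known, and the 9 early-response genes after seeing the values.

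Tests were edgeR 4.0.16 quasi-likelihood fits (filterByExpr, TMM, Benjamini-Hochberg over all genes, called at an adjusted p under 0.05) in R 4.3.3, one per zone, without ribosomal, mitochondrial, pseudogene and Rik genes (2913 removed), and one over 4 zones with the mouse as a block. The tests were first tried on simulated counts. Alternatives were DESeq2 1.42.0, RLE scaling, no count filter, other cell filters, another resolution, a replicate block and leaving out each mouse. The capillary-venous class, counting its cells as venous or capillary, and all alternatives of the zone differences other than RLE and leaving out mice, were added after seeing the data. Libraries of 26436229 to 59161203 UMIs limit the precision. Named genes were the 6 members, App, the 3 genes most like each member and, per zone, the 3 list genes of lowest p.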

Additional observations from a re-analysis of the deposited data

Results flagged for a closer look

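The effect of genotype differed between venous and capillary endothelium for 2 of the 6 members. For Icam1 the log2 fold change of ArcSwe over WT was lower in venous than in capillary cells (-1.04 ± 0.19, edgeR adjusted p = 0.0138), and the venous to capillary ratio was lower in 3 of 3 ArcSwe mice than in any WT mouse. For Vcam1 the difference was -1.48 ± 0.28 (edgeR adjusted p = 0.0224), again with the ratio lower in 3 of 3 ArcSwe mice. Both ratios reread the sums of the test, with no share over all genes beside them. The call for Icam1 was lost without any 1 of 3 mice and at resolution 2, and that for Vcam1 without any 1 of 4 mice, at resolution 2 and with the members allowed in the clustering. Capillary Vcam1 lay at 11.9 to 39.7 CPM, and the 7 venous markers in capillary cells summed to 427 to 549 CPM in WT and 546 to 617 CPM in ArcSwe. Their part in the result was not tested.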

How the results depend on the processing

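With DESeq2 the number of genes called was 12 in arterial, 13 in capillary, 4 in capillary-venous cells and 8 in the barrier sum, and with no count filter it was 98 in arterial, 14 in capillary, 38 in venous, 34 in fenestrated and 128 in capillary-venous cells. With no filter, Icam1 and Vcam1 in arterial, Icam1 in capillary (edgeR adjusted p = 0.0407) and Selp in venous cells passed. Vcam1 in fenestrated cells passed too, but WT held almost no UMIs of it, so no conclusion is drawn from that call. With the members allowed among the variable genes, 0 genes were called in arterial cells and 5 over the zone differences (8 as reported), against 4 at resolution 2. Leaving out each mouse gave 0 to 1 call in arterial and in fenestrated cells and 2 to 13 over the zone differences. The deviations of same-numbered mice correlated at 0.02 to 0.38, highest for replicate 3 in each zone checked, and in no zone at over 0.1 for every number, so the numbers were not taken as pairs. The replicate block gave 1 call in capillary, 4 in fenestrated and 3 in capillary-venous cells, and no member passed with it. The cause of these shifts was not tested.

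Some effects turned direction. With Cx3cr1 or Aif1 cells kept, Icam1 in venous cells gave 0.029 and Ackr1 in the barrier sum 0.00037. Sele in capillary-venous cells gave -0.097 with a stricter cell filter, -0.66 at resolution 2 and -0.098 with members allowed. With capillary-venous cells counted as venous, Icam1 gave 0.23, and counted as capillary, Vcam1 gave -0.15 (1.00 as reported). Arterial minus capillary, Sele gave 0.64 and Vcam1 0.16 at resolution 2, and Vcam1 0.064 with members allowed, which also gave Vcam1, venous minus capillary, -1.20 (edgeR adjusted p = 0.454), while resolution 2 gave -1.06 and Icam1 -0.93. Shares in percentage points turned for Ackr1 in arterial cells (-0.17 at 2000 UMIs, -0.083 not thinned), capillary Sele (0.011 at 2000), capillary Ackr1 (0.0 at 2000), capillary-venous Vcam1 (2.37) and Sele (-0.13) not thinned, venous Icam2 (-0.27 at 2000), venous Ackr1 (1.39 not thinned) and fenestrated Ackr1 (0.43 at 2000).

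Leaving out each mouse, log2 fold changes ranged from -0.20 to 0.24 for venous Icam1, -0.71 to 1.03 for venous Ackr1, -0.25 to 0.24 for Vcam1 and -0.85 to 1.27 for Ackr1 in the barrier sum and -0.23 to 0.70 for capillary-venous Sele. Arterial minus capillary, Vcam1 ranged from -0.47 to 0.026 and Ackr1 from -3.80 to 2.55. Venous minus capillary, Icam1 ranged from -1.26 to -0.88, Vcam1 from -1.70 to -1.24, Icam2 from -0.070 to 0.033 and Ackr1 from -3.37 to 0.72. Fenestrated minus capillary, Sele ranged from -3.79 to 0.37, Icam2 from -0.10 to 0.15 and Selp from -0.33 to 9.87. Few venous cells limit Sele, Selp and Ackr1, and few venous UMIs limit Sele and Selp.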
